A study of Mus musculus with 6 samples.

Results

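The carbonic anhydrases examined here are the products of 9 mouse genes, *Car2*, *Car3*, *Car4*, *Car5b*, *Car8*, *Car9*, *Car12*, *Car13* and *Car14*, taken by symbol from the 55401 genes counted in subcutaneous white adipose tissue (scWAT). The genes were chosen by family and by the measured abundance of *Car3* in these same libraries, so its level and rank are given as a description, with no test. The choice set no cutoff. Bulk RNA-seq was made from total RNA of 3 male mice that carry floxed alleles of *Yap* and *Taz* (YT-FF, called WT in the sample labels) and of 3 male mice with the genotype Yapfl/fl/Tazfl/fl;AdipoqCre (YT-AKO). All mice were 8 weeks old and were kept at room temperature. The *Adipoq* promoter drives Cre in mature adipocytes, so the other cells of the tissue keep the floxed alleles unrecombined. The comparison asks which genes differ in scWAT when *Yap* and *Taz* are deleted from adipocytes.

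Carbonic anhydrases interconvert carbon dioxide and water with bicarbonate and a proton, and most of them hold a zinc ion by histidine residues at the active site. The family members differ mainly in where they act. *Car2*, *Car3* and *Car13* encode cytosolic enzymes, *Car5b* a mitochondrial enzyme, *Car4* an enzyme anchored to the outer face of the plasma membrane by a lipid, and *Car9*, *Car12* and *Car14* enzymes that span the membrane. *Car8* encodes a related protein without the catalytic activity, known for binding the inositol trisphosphate receptor. CA3, the product of *Car3*, is a slow enzyme found mainly in adipose tissue, skeletal muscle and liver, and bicarbonate in adipocytes feeds the carboxylases of lipid synthesis.

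The sequences below show the feature that separates *Car8* from the other members. Each is 30 bases of the coding strand of GRCm38 with the GENCODE vM21 gene models, and the capitals mark the codons of the first zinc-binding pair. The window was located in each coding sequence by the amino acid pattern that the family shares around this pair, written so that it would also find the *Car8* form.
*Car3*, exon 3, chr3:14866838-14866867, plus strand: cttcgccaattcCATcttCACtggggctcc
*Car2*, exon 3, chr3:14895057-14895086, plus strand: ttgatccagtttCACtttCACtggggctca
*Car13*, exon 3, chr3:14650694-14650723, plus strand: ttgcggcagttcCATttgCACtgggggtca
*Car5b*, exon 4, chrX:163991405-163991434, minus strand: ctgaagcagtttCATtttCATtggggagcc
*Car4*, exon 4, chr11:84964155-84964184, plus strand: gctgtacagttgCACctgCACtggtcaaat
*Car9*, exon 4, chr4:43508952-43508981, plus strand: gccttgcagttgCATctaCACtggggaact
*Car12*, exon 4, chr9:66747635-66747664, plus strand: gcagagcagctgCACttgCACtgggggaac
*Car14*, exon 4, chr3:95900300-95900329, minus strand: gcagcccagctcCACctgCACtggggtcag
*Car8*, exon 3, chr4:8221604-8221633, minus strand: ctgtatgaagttAGAtttCACtggggaaga
All members but *Car8* carry CAC or CAT, the codons of histidine, at both marked places, and *Car8* carries AGA at the first.

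The libraries held 17740987 to 21838493 counted fragments, with TMM factors of 1.07 to 1.16 in YT-FF and 0.777 to 0.955 in YT-AKO, the lowest in YT-AKO 2. YT-AKO 2 stood apart: over log2 CPM it correlated with the other YT-AKO libraries at 0.934 and 0.937, against 0.972 between those and 0.977 to 0.984 among the YT-FF libraries, and it had the fewest genes detected, 20501 against 22810 to 24576. Results that change without it are given both ways. Of the targeted genes, *Yap1* had a log2 fold change of -0.98 (adjusted p = 0.0179) and *Wwtr1*, which encodes TAZ, of 0.89 (adjusted p = 0.0220, both from edgeR's quasi-likelihood test, Benjamini-Hochberg adjusted over all 16807 tested genes), so *Yap1* went with the label, *Wwtr1* went against it, and directions below refer to the libraries labelled YT-AKO. The counts are sums over whole genes and do not show the loss of single exons. Longer genes tended to lower log2 fold changes, with a Spearman's rho of -0.376 over the 16807 genes (-0.283 without YT-AKO 2), a description since genes are not independent. Values in CPM (counts scaled to the library size) use the TMM factors, and values in TPM (transcripts scaled to a common total) also divide by the summed exon length, so levels are compared between genes only in TPM. In TPM the median log2 ratio of YT-AKO to YT-FF over all genes was -0.66, against -0.02 for the TMM-scaled fold changes.

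*Car3* made up nearly the whole carbonic anhydrase message of scWAT. Its level was 12138, 13183 and 14789 TPM in YT-FF 1 to 3 and 14951, 11789 and 19073 TPM in the libraries labelled YT-AKO 1 to 3. The groups overlapped on this scale, with the lowest and the highest value both in YT-AKO. By TPM, *Car3* ranked between 2 and 4 among all genes in every library. Of the summed TPM of all counted *Car* genes, it held 98.1% ± 0.0677 in YT-FF and 98.8% ± 0.387 in YT-AKO (mean ± SD, n = 3). The related receptor phosphatases *Ptprg* and *Ptprz1* are not in this sum. By counts alone it took 1.13% ± 0.109 of all counted fragments in YT-FF and 1.63% ± 0.253 in YT-AKO (mean ± SD, n = 3). *Scd1*, the stearoyl-CoA desaturase, led by counts in the YT-FF libraries and YT-AKO 1, *Cfd* in YT-AKO 2 and *Car3* itself in YT-AKO 3.

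The other 8 members lay far lower, with no value above 151 TPM in any library. In YT-FF, the mitochondrial *Car5b* followed with 135 ± 14.5 TPM, then *Car4* with 53.2 ± 9.37, *Car13* with 29.3 ± 1.75, *Car2* with 7.71 ± 1.37 and *Car8* with 4.60 ± 1.13 TPM (mean ± SD, n = 3). The ranges of neighbours in this order did not overlap. *Car9* (1.44 ± 0.564 TPM), *Car12* (0.667 ± 0.197 TPM) and *Car14* (0.556 ± 0.356 TPM) were lowest, and their ranges overlapped from one to the next. In the libraries labelled YT-AKO the means kept this order down to *Car8*, but *Car5b* (40.2 to 100 TPM) overlapped with *Car4* (44.8 to 73.5 TPM), and *Car2* (3.29 to 11.1 TPM) with *Car8* (1.53 to 3.75 TPM). *Car12* then had the lowest level, 0.128 ± 0.119 TPM.

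**Figure D1:**
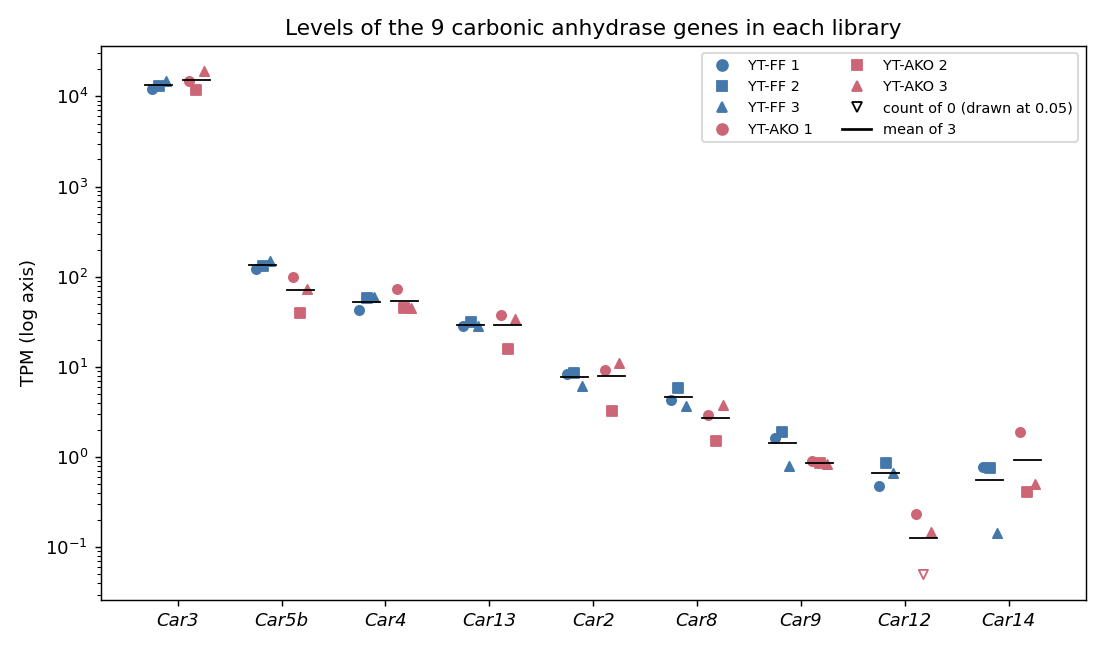
Level of each of the 9 carbonic anhydrase genes in TPM (log axis) in the 3 YT-FF libraries (blue) and the 3 libraries labelled YT-AKO (red), with a black line at the mean of 3 and an open triangle for a count of 0. *Car3* lies between 11789 and 19073 TPM, all other members lie at or below 151 TPM, and the YT-AKO points of *Car5b* and *Car12* all lie below their YT-FF points.

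All 9 members passed the filter on low counts. With edgeR's quasi-likelihood test, Benjamini-Hochberg adjusted, 1 of the 9, *Car3*, was called higher at an adjusted p under 0.05 and 0 were called lower. Of all tested genes, 12.6% were called higher and 9.01% lower. At an unadjusted p under 0.05 there were 3 members, *Car3*, *Car4* and *Car13*, all with a fitted change above 0. The fitted change was above 0 for 5 members and below 0 for 4, and the median over the 9 was 0.59 on the log2 scale, against -0.02 over all tested genes. In CPM, 3 members (*Car3*, *Car12*, *Car13*) had values that did not overlap between the groups, where 51.5% of all tested genes did not overlap. DESeq2 called 3 members higher, *Car3*, *Car4* and *Car13*, where it called 18.1% of all genes higher. Likewise, edgeR without YT-AKO 2 called *Car2*, *Car3* and *Car13* higher, with 16.9% of all genes. Since the members were chosen with these results known, nothing is read from the counts.

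*Car3* (ENSMUSG00000027559.5, chromosome 3, 14863512 to 14872523 of mm10, plus strand) drew 212290, 217723 and 228141 counts across YT-FF 1 to 3, against 264266, 326797 and 340095 across YT-AKO 1 to 3. In CPM these were 9048, 9568 and 11748 in YT-FF and 15364, 19273 and 20098 in YT-AKO. Every YT-AKO library lay above every YT-FF library in counts and in CPM (two-sided exact permutation test, p = 0.1, the smallest p that 3 libraries against 3 allow). The mean went from 10121 ± 1432 to 18245 ± 2529 CPM. The fitted change was 1.80-fold with a 95% interval of 1.20 to 2.71. On the log2 scale this was 0.85 with a standard error of 0.255 (edgeR's quasi-likelihood test, Benjamini-Hochberg adjusted p = 0.0496). In bulk tissue, a difference in the number of cells that express a gene and one in its RNA per cell cannot be told apart.

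The call for *Car3* lay at the edge of the threshold, and it was kept in 5 of 17 alternatives. It was lost without YT-FF 1 (adjusted p = 0.182), YT-FF 2 (0.189), YT-FF 3 (0.0629), YT-AKO 1 (0.0599) or YT-AKO 3 (0.0983), while without YT-AKO 2 the log2 fold change was 0.81 with an adjusted p of 0.0148 (all edgeR with Benjamini-Hochberg adjustment). Without YT-FF 1 or without YT-FF 2, 0 of all tested genes were called higher, and with the replicate block 24 were. A loss under those settings is thus not particular to *Car3*. Its log2 fold change stayed above 0 throughout, between 0.52 with library totals alone and 0.97 without YT-FF 3.

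The size of the *Car3* difference depended on the scale. In TPM the mean was 13370 ± 1335 in YT-FF and 15271 ± 3653 in YT-AKO (mean ± SD, n = 3, two-sided exact permutation test, p = 0.6), a log2 ratio of 0.19. YT-AKO 2, with the second highest *Car3* in CPM, had the lowest in TPM. Set against the median of all genes on the same scale, the *Car3* difference was 0.87 with TMM, 0.87 with library totals alone, 0.85 in TPM and 0.66 after a correction for gene length.

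**Figure D2:**
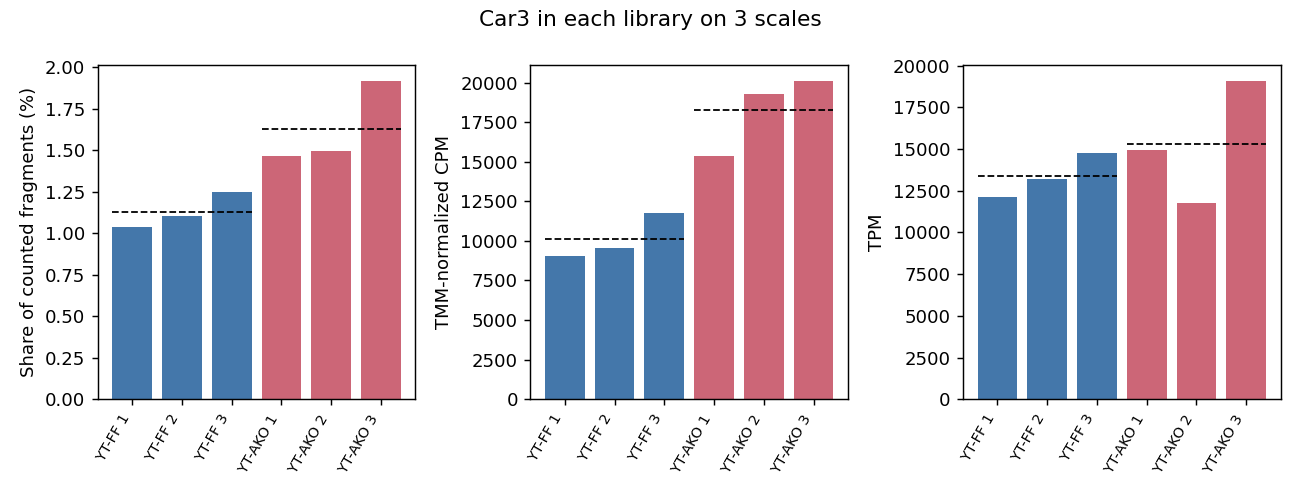
*Car3* in each library as a share of counted fragments in percent, in TMM-normalized CPM and in TPM, with YT-FF in blue, YT-AKO in red and a dashed line at each group's mean of 3. The groups are apart in the first 2 panels and overlap in TPM, where YT-AKO 2 has the lowest bar of all 6.

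*Car3* lies in a cluster of cytosolic carbonic anhydrase genes on chromosome 3 that spans 259 kb in the order *Car13*, *Car1*, *Car3* and *Car2*, with gaps of 103, 55.1 and 13.7 kb. The fitted changes of all of these were above 0 with TMM, and *Car3* was the one of them called. *1810022K09Rik*, a gene before *Car13* and outside the family, was also called higher (1.19, adjusted p = 0.0379 from edgeR with Benjamini-Hochberg adjustment). The log2 ratio of mean TPM, however, was -0.02 for *Car13* and 0.03 for *Car2*. Set against the median of all genes in TPM, -0.66, the differences were 0.65 for *Car13* and 0.69 for *Car2*.

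*Car2* (14886273 to 14900770), which encodes the fast, widespread cytosolic enzyme of red cells and many tissues, drew 123, 121 and 80 counts across YT-FF 1 to 3, against 137, 77 and 168 across YT-AKO 1 to 3. In CPM these were 5.24, 5.32 and 4.12 against 7.97, 4.54 and 9.93, so YT-AKO 2 lay among the YT-FF values. The log2 fold change was 0.61 (95% interval -0.14 to 1.36, adjusted p = 0.190 from edgeR with Benjamini-Hochberg adjustment). It did not pass in 16 of 17 alternatives. Without YT-AKO 2 it was 0.87 with an adjusted p of 0.0238, but without YT-AKO 3 it was 0.36 (adjusted p = 0.454), with the length correction 0.41 (0.392) and with library totals alone 0.31 (0.545, all from the same edgeR test).

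*Car13* (14641727 to 14663002), another cytosolic enzyme, drew 396, 415 and 351 counts across YT-FF 1 to 3, against 529, 353 and 483 across YT-AKO 1 to 3. In CPM the values were 16.9, 18.2 and 18.1 in YT-FF and 30.8, 20.8 and 28.5 in YT-AKO, without overlap. The log2 fold change was 0.59 (95% interval 0.15 to 1.03, adjusted p = 0.0599 from edgeR with Benjamini-Hochberg adjustment). It passed in 3 of 17 alternatives, with DESeq2 (adjusted p = 0.0278) and with edgeR without YT-AKO 2, both without the length correction (0.74, adjusted p = 0.00507) and with it (0.55, adjusted p = 0.0169). With the length correction on all libraries it was 0.37 (adjusted p = 0.208) and with library totals alone 0.28 (adjusted p = 0.396). In TPM *Car13* was 29.3 ± 1.75 in YT-FF and 29.0 ± 11.5 in YT-AKO (mean ± SD, n = 3). Relative to the median gene, the *Car13* difference in TPM was 0.65 on the log2 scale. *Car1*, the cytosolic enzyme best known from red cells, is not one of the 9 and had only 20 to 38 counts per library, with a log2 fold change of 0.77 (adjusted p = 0.151 in the same edgeR test).

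*Car5b*, the mitochondrial enzyme (chromosome X, 163976822 to 164027997, minus strand), was the second most abundant member, and its fitted change lay below 0. It drew 4791, 4783 and 5181 counts across YT-FF 1 to 3, against 3936, 2469 and 2888 across YT-AKO 1 to 3. In CPM, 204, 210 and 267 in YT-FF stood against 229, 146 and 171 in YT-AKO, which overlap, and the log2 fold change was -0.32 (95% interval -0.82 to 0.18, adjusted p = 0.291 from edgeR with Benjamini-Hochberg adjustment). In TPM the groups did not overlap, with 124, 131 and 151 in YT-FF and 100, 40.2 and 73.0 in YT-AKO (two-sided exact permutation test, p = 0.1, the smallest possible), as was the case for 62.0% of all tested genes. Relative to the median gene, the *Car5b* difference in TPM was -0.26 on the log2 scale.

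A ratio of the counts of 2 genes needs no scaling for library size, but the trend with gene length does not cancel in it. The ratio of *Car3* to *Car5b* counts was 44.3, 45.5 and 44.0 in YT-FF and 67.1, 132 and 118 in the libraries labelled YT-AKO. The YT-FF values lay within a narrow band and every YT-AKO value above it (44.6 ± 0.790 against 106 ± 34.2, mean ± SD, n = 3, two-sided exact permutation test, p = 0.1, the smallest that 3 against 3 allow). How often other gene pairs separate in this way was not examined. The ratio of *Car3* to *Car4* counts, 371 ± 42.1 against 433 ± 167, overlapped between the groups (exact permutation test, p = 0.8), as did that of *Car3* to *Car13*, 570 ± 69.3 against 710 ± 213 (exact permutation test, p = 0.4). *Car5b* has 6354 exon bases and *Car3* 2865. With the length correction the log2 fold changes drew closer, to 0.74 for *Car3* and -0.085 for *Car5b*, and without YT-AKO 2 they were 0.70 and -0.023 with the same correction.

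Of the enzymes at the cell surface, *Car4* was the most abundant. This gene (chromosome 11, 84957786 to 84966044) drew 509, 651 and 631 counts across YT-FF 1 to 3, against 891, 853 and 549 across YT-AKO 1 to 3. In CPM these were 21.7, 28.6 and 32.5 against 51.8, 50.3 and 32.4, with YT-AKO 3 just under the highest YT-FF library. The log2 fold change was 0.70 (95% interval 0.15 to 1.25, adjusted p = 0.0662 from edgeR with Benjamini-Hochberg adjustment). It passed in 3 of 17 alternatives, with DESeq2 (adjusted p = 0.0389), with edgeR without a filter on low counts (0.0453) and with edgeR without YT-AKO 3 (0.90, adjusted p = 0.0415). It did not pass in the other 14, among them the length correction (0.41, adjusted p = 0.216) and library totals alone (0.37, adjusted p = 0.241, both edgeR). In TPM it was 53.2 ± 9.37 and 54.4 ± 16.5 (mean ± SD, n = 3). Relative to the median gene, the *Car4* difference in TPM was 0.69 on the log2 scale.

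*Car12* (chromosome 9, 66713686 to 66766845), a membrane-spanning enzyme of secretory epithelia and kidney, had the lowest fitted change of the 9. It drew 22, 38 and 27 counts across YT-FF 1 to 3, against 11, 0 and 7 across YT-AKO 1 to 3, without overlap. The log2 fold change was -1.90, with a 95% interval from -3.85 to 0.05 and an adjusted p of 0.130 (edgeR with Benjamini-Hochberg adjustment). A count of 0 in YT-AKO 2 allows up to 0.177 CPM. Without that library the log2 fold change was -1.33, and it was below 0 in all 16 alternatives that tested the gene.

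*Car9* (chromosome 4, 43506966 to 43513729), a tumour-associated enzyme known as a target of the hypoxia-inducible factors, had 10 to 25 counts in YT-FF and 12 to 19 in YT-AKO. Its log2 fold change was -0.01, with an interval wide enough, -1.12 to 1.09, to include a doubling or a halving. *Car14* (chromosome 3, 95897768 to 95904691, minus strand), another membrane-spanning enzyme, drew 12, 11 and 2 counts across YT-FF 1 to 3, against 30, 10 and 8 across YT-AKO 1 to 3, and its log2 fold change was 1.32 (95% interval -0.41 to 3.05, adjusted p = 0.219 from edgeR with Benjamini-Hochberg adjustment). YT-AKO 1 alone had more counts than any YT-FF library, and without it the log2 fold change was 0.52 (adjusted p = 0.650 in the same edgeR test). Its exons share 17.5% of their bases with *Aph1a* and those of *Car9* 9.29% with *Gm12454*, each on the opposite strand, and fragments were counted without strand, so these low counts are uncertain.

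*Car8* (chromosome 4, 8143362 to 8239041, minus strand), the acatalytic member with the AGA codon shown above, drew 101, 130 and 76 counts across YT-FF 1 to 3, against 69, 57 and 90 across YT-AKO 1 to 3. The log2 fold change was -0.14 (95% interval -0.81 to 0.54, adjusted p = 0.752 from edgeR with Benjamini-Hochberg adjustment).

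**Figure D3:**
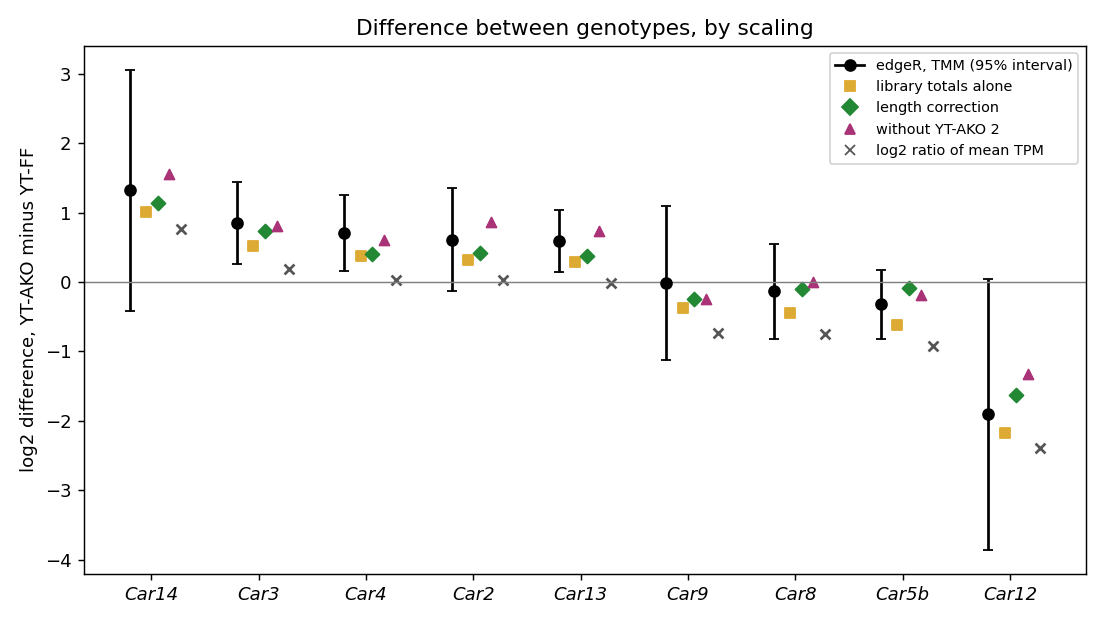
Log2 difference of YT-AKO minus YT-FF for the 9 carbonic anhydrase genes, with edgeR's fitted value and 95% interval (black), the fits with library totals alone, with a length correction and without YT-AKO 2, and the log2 ratio of mean TPM. The intervals of *Car3*, *Car4* and *Car13* lie above 0, and the TPM ratios of *Car4*, *Car2* and *Car13* lie at about 0. The median TPM ratio over all genes was -0.66.

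A further 9 family genes were counted, of which 5 passed the filter, 1 called higher and 1 lower. *Car11*, which encodes another protein without the activity, was at 6.70 ± 0.844 CPM in YT-FF and 12.4 ± 1.48 CPM in YT-AKO (mean ± SD, n = 3), and its log2 fold change was 0.88 (adjusted p = 0.0283 from edgeR with Benjamini-Hochberg adjustment). *Ptprg*, a receptor phosphatase whose extracellular part holds a carbonic anhydrase-like domain, fell by 0.68 on the log2 scale, from 44.8 ± 5.72 to 28.0 ± 2.50 CPM (adjusted p = 0.0293 in the same edgeR test). Neither of these encodes an active carbonic anhydrase, and both calls were lost with the length correction (*Car11* 0.59, adjusted p = 0.0935, and *Ptprg* -0.19, adjusted p = 0.505). Without YT-FF 1, YT-FF 2 or YT-FF 3 in turn the adjusted p ran from 0.0764 to 0.129 for *Car11*, and it was 0.0542 without YT-AKO 1. For *Ptprg* it ran from 0.0809 to 0.124 without one YT-FF library and was 0.0680 without YT-AKO 3. *Car7*, a cytosolic enzyme, had a log2 fold change of 0.25 (adjusted p = 0.532), and *Car15*, which shares 65.7% of its exon bases with *Gm20518*, one of -0.63 (adjusted p = 0.477, both from the same edgeR test). *Car5a*, the other mitochondrial enzyme, had 1 to 3 counts in YT-FF and 0 in YT-AKO, and *Car6* and *Car10* had at most 4 counts in any library.

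The genes listed around the movement and use of bicarbonate and protons fall into 3 lists with 31 tested genes. Of these, 5 (16.1%) were called higher and 3 (9.68%) lower, near the shares of all genes given above. None of the genes named as called in these lists or the hypoxia list passed without YT-FF 1 or without YT-FF 2. Of all tested genes, 0 were called without YT-FF 1, and 0 higher and 2 lower without YT-FF 2. The losses are thus not particular to these lists. Among 8 tested genes of the bicarbonate transporter families, 0 were called higher and 2 lower by edgeR's quasi-likelihood test, Benjamini-Hochberg adjusted, with 0 higher at an unadjusted p under 0.05 and 0 higher with DESeq2. The 2 were the sodium-coupled bicarbonate transporters *Slc4a8* (-0.77, adjusted p = 0.0271) and *Slc4a7* (-0.84, adjusted p = 0.0306). The median of the 8 was 0.00 on the log2 scale. With the length correction, 0 of the 8 were called, and without YT-AKO 2 *Slc4a4*, another sodium-coupled transporter, was called higher (0.97, adjusted p = 0.00838 from edgeR with Benjamini-Hochberg adjustment).

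Of 13 tested genes listed as proton and lactate transporters and their partners, 2 were called higher and 1 lower, with a median of -0.18. The 2 were *Slc16a1*, the lactate transporter MCT1 (1.01, adjusted p = 0.0314), and *Bsg*, the chaperone that carries it to the membrane (0.87, adjusted p = 0.0271). *Slc9a7*, a sodium-proton exchanger of the Golgi, fell by 1.93 on the log2 scale, from 6.11 ± 1.91 to 1.60 ± 0.225 CPM (mean ± SD, n = 3, adjusted p = 0.0185, all from edgeR with Benjamini-Hochberg adjustment). With library totals alone, neither *Slc16a1* nor *Bsg* was called.

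The list around bicarbonate use had 10 tested genes, among them *Hlcs* and *Adcy10*, whose products do not consume bicarbonate. Of the 10, 3 were called higher and 0 lower, with a median of 0.43 and 0 lower at an unadjusted p under 0.05 or with DESeq2. All 3 belong to mitochondrial carboxylases of amino acid and odd-chain catabolism, namely *Pccb* (1.04, adjusted p = 0.0205), *Mccc2* (0.80, adjusted p = 0.0260) and *Mccc1* (0.66, adjusted p = 0.0360, edgeR with Benjamini-Hochberg adjustment). The carboxylases around fatty acid metabolism were not called with all libraries and TMM. *Acaca*, acetyl-CoA carboxylase 1, was at 991 ± 183 CPM in YT-FF and 676 ± 325 in YT-AKO, and *Pcx*, pyruvate carboxylase, at 1076 ± 118 and 1245 ± 257 CPM (mean ± SD, n = 3). *Acacb*, acetyl-CoA carboxylase 2, was at 663 ± 78.7 and 818 ± 157 CPM. With the length correction 5 of the 10 were called higher, *Acacb* among them (0.72, adjusted p = 0.0416), and scaling by library totals alone left 1 called higher and 1 called lower. Without YT-AKO 1, *Acaca* was called lower (log2 fold change -1.01, adjusted p = 0.0350, edgeR with Benjamini-Hochberg adjustment).

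Among 5 tested aquaporins, channels for water and in some cases glycerol, 0 were called in either direction by edgeR or DESeq2. The median was -0.05, and 1, *Aqp3*, had an unadjusted p under 0.05 (log2 fold change -0.92, adjusted p = 0.108 from edgeR with Benjamini-Hochberg adjustment). *Aqp7* was at 143 ± 42.1 CPM in YT-FF and 158 ± 26.9 in YT-AKO.

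Of 18 tested genes induced by hypoxia, 4 were called higher and 1 lower, beside 12.6% and 9.01% of all tested genes. The median of the list was 0.21. The 4 were the glycolytic *Pgk1* (1.08, adjusted p = 0.0185) and *Ldha* (1.02, adjusted p = 0.0249) and the collagen prolyl hydroxylase subunits *P4ha1* (1.22, adjusted p = 0.0190) and *P4ha2* (0.88, adjusted p = 0.0207). *Kdm3a*, a histone demethylase, was lower (-0.75, adjusted p = 0.0340, edgeR with Benjamini-Hochberg adjustment), while *Vegfa* and *Slc2a1* had values of -0.47 and -0.35 that did not pass. With the length correction 6 were called higher and 0 lower, beside 1608 and 659 of all 16807 tested genes, and *Kdm3a* was at -0.40 (adjusted p = 0.0849 in the same edgeR test). With library totals alone 3 were called higher and 4 lower, beside 1137 and 2828 of the 16807. Without YT-AKO 2, 7 were called higher, beside 16.9% of all genes. *Aldoa*, another glycolytic gene of the list, was not counted because 2 gene models carry its symbol, and the more abundant of them (ENSMUSG00000030695.16) was called higher (adjusted p = 0.0176 in the same edgeR test).

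**Figure D4:**
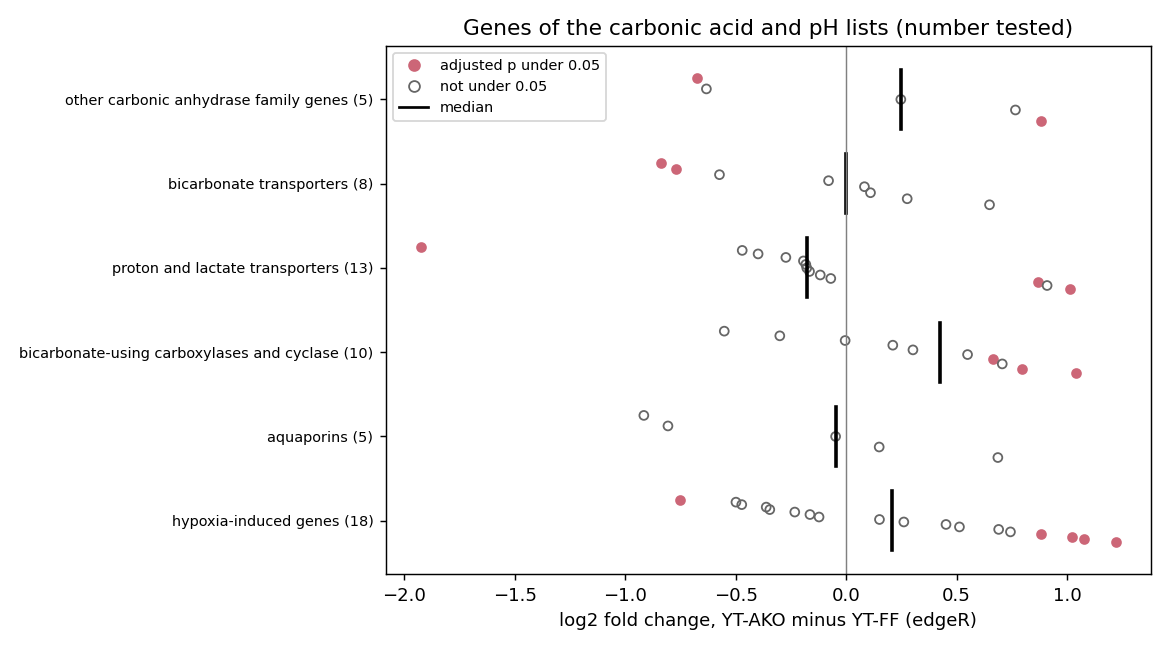
Log2 fold change of YT-AKO minus YT-FF (edgeR) for each tested gene of the other carbonic anhydrase family genes and of the 5 lists around bicarbonate and pH, filled red where the adjusted p was under 0.05, with a black line at each list's median. Called genes lie on both sides of 0 in 3 of the 6 lists, and the medians lie between -0.18 and 0.43.

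Promoter windows of 250 bases before the start site were given by RefSeq (GRCm38.p6) for 5 of the 9 members, *Car4*, *Car5b*, *Car9*, *Car12* and *Car14*. They were searched on both strands for CATTCC (the TEAD motif), ACGTG (the core of the hypoxia response element), TTGCNNAA (C/EBP) and TATAAA, which do not overlap one another in these windows. *Car9* held ACGTG at -18, and *Car14* held ACGTG at -7 and CATTCC at -232. Among 32544 windows of the same length, 12.6% held CATTCC and 16.6% held ACGTG, 9.58% TTGCNNAA and 12.3% TATAAA. The other 3 windows held none of the 4 motifs.

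The adipocyte markers were among the most abundant genes of the tissue. Their summed level over 18 genes was 31253 to 42105 CPM in YT-FF and 56646 to 100940 CPM in YT-AKO, with *Cfd*, *Fabp4* and *Lpl* the highest. Without *Cfd* and *Fabp4*, left out after their values were seen, the sums overlapped, at 21538 to 29565 CPM in YT-FF and 28782 to 33664 CPM in YT-AKO. The median log2 fold change of the list was 0.38, with *Lpl* and *Cd36* at 0.03, *Lep* at -0.13 and *Plin4* at -0.22. Of these 18, 4 were called higher and 0 lower, beside 12.6% and 9.01% of all tested genes, with 0 lower at an unadjusted p under 0.05. Of 12 beige and brown thermogenic genes, 8 were called higher and 0 lower, with a median of 3.12 on the log2 scale. The part of either in the *Car3* difference was not tested.

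Skeletal muscle also expresses *Car3*. The 22 muscle markers summed to 236 to 721 CPM in YT-FF and to 4762, 704 and 303 CPM in YT-AKO 1 to 3, with *Acta1*, *Myh4* and *Myl1* the highest and 1 of 18 tested, *Acta1*, called higher. Of the slow-fibre genes in the list, the myosin *Myh7* had 0 to 5 counts per library, the troponin *Tnni1* 1 to 13 and the troponin *Tnnt1* 13 to 70. The part of muscle in the *Car3* difference was not tested. Erythroid markers, which bear on *Car1* and *Car2*, summed to 259 to 929 CPM in YT-FF and 610 to 1601 CPM in YT-AKO. Endothelial markers, which bear on *Car4*, summed to 1093 to 1236 CPM in YT-FF and 1136 to 1882 CPM in YT-AKO, with *Gpihbp1* called higher and *Kdr* lower among 14 tested. In YT-FF 1 to 3 the endothelial sum and *Car4* ran in the same order, but so did the adipocyte, thermogenic and erythroid sums and *Car3*. In YT-AKO the endothelial sum and *Car4* were both lowest in YT-AKO 3. The sum was highest in YT-AKO 2 (1882 CPM), but *Car4* was highest in YT-AKO 1 (51.8 CPM). Epithelial markers, which bear on *Car12*, summed to 13.6 to 15.2 CPM in YT-FF and 9.73 to 10.2 CPM in YT-AKO. Of 3 tested, 1 was called lower, beside 9.01% of all tested genes. The part of red cells, endothelium and epithelium in these members' values was not tested.

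The genes whose log2 CPM followed *Car3* most closely over the 6 libraries, among 15179 genes with a mean of at least 1 CPM, were *Ubap1* (Pearson's r = 0.998), *Abhd16a* (0.997), *Slc16a8* (0.996), *Serpinf1* (0.996) and *Trp53rka* (0.995). These values describe 6 libraries of 2 groups that share the same scaling factors. *Serpinf1*, which encodes the secreted factor PEDF, went from 163 ± 27.5 to 326 ± 41.4 CPM, and *Abhd16a*, a phospholipid lipase, from 83.4 ± 9.37 to 146 ± 18.3 CPM (mean ± SD, n = 3).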

How the data were processed

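Genotypes in the sample labels set the groups, 3 YT-FF and 3 YT-AKO libraries of scWAT. The authors aligned paired ends to mm10 using HISAT2, and featureCounts 2.0.1 summed fragments over GENCODE vM25 exons without strand. The deposited values are raw counts, with no normalization. Members, lists and tests were chosen with earlier results of these data known. Genes named are the members and family genes, the targeted genes, up to 4 called genes of each list, the leading markers and the 5 genes most like *Car3*. Other named genes were chosen after their values were seen.

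Counts were analysed in R 4.3.3 with edgeR 4.0.16, using TMM, a filter on low counts (filterByExpr with a minimum count of 10 and a minimum total of 15), the quasi-likelihood test and Benjamini-Hochberg adjustment. The method was tested on simulated data with less variation between libraries than here and with larger fold changes than that of *Car3*. That test therefore does not cover calls of this size. Alternatives used DESeq2 1.42.0, limma-voom (limma 3.58.1), other scalings and filters, robust fits, a replicate block, a length correction (spline with 6 degrees of freedom) and each library left out. The length correction without YT-AKO 2 was added after seeing the data. Permutation tests were exact and two-sided. Fragments carry no molecular identifiers, so the floor of 3 counts covers counting error only.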

Additional observations from a re-analysis of the deposited data

How the results depend on the processing

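The labels do not say that libraries with the same replicate number form pairs. Deviations of same-numbered libraries from their group means correlated at 0.126, -0.118 and -0.0893, and those of differently numbered libraries at -0.140 to 0.160. With 3 libraries per group, these values can neither show nor exclude a pairing. With the replicate block, 0 members, 24 of all tested genes higher and 9 lower were called, with *Car3* at 0.85 and *Car9* at 0.024 (log2). With the length correction and the replicate block together, the counts were 0, 46 and 19, with *Car3* at 0.74.

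The number of members called higher was 3 with DESeq2, 0 with library totals alone, with at least 10 counts in every library, with robust estimation and with the length correction, 2 with the length correction without YT-AKO 2, 0 where an adjusted p under 0.01 was asked for together with a log2 fold change past 1, and 0 to 3 with each library left out. No member was called lower under these alternatives. *Car3* lost its call at a log2 fold change of 0.52 with library totals alone, 0.85 without a filter, 0.82 with at least 10 counts in every library, 0.85 with robust estimation and 0.74 with the length correction, and ran from 0.77 to 0.97 with each library left out. Over all tested genes, 1137 were called higher and 2828 lower with library totals alone, 2392 lower with DESeq2, 659 lower with the length correction, and 15 higher and 6 lower at the stricter threshold. Leaving out each library gave 0 to 2925 higher and 0 to 2424 lower. It was 0 higher without YT-FF 1 or YT-FF 2. The cause was not tested.

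*Car8* and *Car9*, with fitted changes near 0, changed sign: *Car8* to 0.023 with the length correction without YT-AKO 2 and between -0.33 and 0.035 with each library left out, and *Car9* to 0.017 with limma-voom and between -0.27 and 0.19 with each library left out. *Car12* and *Car14* had no value with at least 10 counts in every library. Counts of 0 to 38 per library limit *Car9*, *Car12* and *Car14*.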
